A study of Mus musculus with 12 samples.

Results

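The genes described here are the matrix metalloproteinases (MMPs), their tissue inhibitors (TIMPs), the ADAMTS and ADAMTS-like proteins and the lysyl oxidases (LOX) of the mouse. They were taken as every protein-coding gene whose GENCODE M21 symbol belongs to 1 of these families, matched to the count files by Ensembl identifier. This gave 55 of the 47729 genes with a row in the files, namely 22 MMPs, 4 TIMPs, 19 ADAMTS, 5 ADAMTS-like and 5 LOX genes.

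Liver RNA from 12 male C57BL/6 mice was sequenced, 4 in each of 3 groups, with livers taken at the end of dosing at 9 weeks of age. Healthy mice (Naive_vehicle, wild type) stayed on a normal diet and received vehicle from week 6 to week 9. The other 2 groups were STAM mice, which had streptozotocin on day 2 and a high-fat diet from week 4, and which were given either vehicle (STAM_vehicle) or 10 mg/kg I-BET151 by mouth once a day from week 6 to week 9 (STAM_treated). STAM mice are a chemical and dietary model of non-alcoholic steatohepatitis (NASH) on a background of insulin deficiency, and I-BET151 is a small molecule that blocks the bromodomains of the BET proteins, which read acetylated histones. Neither streptozotocin nor the diet was given alone, so their shares in a difference between STAM and healthy livers cannot be told apart. The methods name methylcellulose for the vehicle and a hydroxypropyl methylcellulose suspension with detergent for the drug, so the carrier differed along with the drug.

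MMPs are zinc endopeptidases, most of them made as inactive precursors, that cut collagens, gelatin, elastin and other matrix proteins, and TIMPs bind and block their active site. ADAMTS proteins are related secreted proteases that trim procollagens, cleave proteoglycans or process other secreted proteins, and the ADAMTS-like proteins share their binding domains but lack the protease. Lysyl oxidases oxidise lysines of collagen and elastin so that the fibres can be cross-linked. In the injured liver, stellate cells and macrophages are known as main sources of these proteins.

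Total counts on genes ranged from 34711229 to 53365596 per mouse. STAM_treated mouse 3 stood apart from the other mice of its group, with a TMM factor (the scaling factor for library composition) of 1.609 against 0.9443 to 1.041, and with 7.946% of its counts in its 10 most abundant genes against 16.41% to 17.56%. Its summed level of 5 hepatocyte markers was the lowest of the 12 mice. The methods leave out 1 treated sample that they do not name, all 4 treated mice were used here, and the counts of called members are also given without mouse 3. The 12 libraries came from 6 sequencing lanes, and only lane 2 held both a healthy and a STAM_vehicle mouse.

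Levels are given as CPM (counts on a gene per 1000000 counts of the TMM-scaled library), and levels of different genes are compared only as CPM per kilobase of exon. Of the 55 genes, 41 passed the low-count filter and were tested. The other 14 were Mmp1b, Mmp10, Mmp16, Mmp20, Mmp21, Mmp24, Mmp25, Timp4, Adamts8, Adamts16, Adamts17, Adamts18, Adamts19 and Adamts20, none of which had more than 56 counts in any mouse. Mmp1b had no count in any mouse, and Mmp10, Mmp20, Adamts19 and Adamts20 had 1 count each over all 12 mice.

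Per kilobase of exon, the MMP transcripts of these livers were mostly those of 3 genes. Averaged over the 12 mice, Mmp19, a secreted MMP of broad substrate range, stood highest at 15.3 CPM per kb. Mmp14, the membrane-anchored enzyme that activates the precursor of MMP2, followed at 8.65, and Mmp15, a second transmembrane MMP, had 5.54. These 3 genes made up between 68.6% and 90.3% of the summed MMP level of a mouse. Timp2 (6.52 CPM per kb) and Timp3 (2.68) were the most abundant inhibitors, Adamts1 (3.42) was the highest ADAMTS and Adamtsl2 (2.90) the highest ADAMTS-like gene.

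The next levels in each family were lower. Among the gelatinases, Mmp2 averaged 2.12 CPM per kb and Mmp9 averaged 0.401. Among the lysyl oxidases, the order was Loxl2 (1.66), Loxl1 (0.957), Loxl3 (0.747), Loxl4 (0.337) and Lox (0.241). Only 13 of the 41 tested genes averaged over 1 CPM per kb, and the lowest was Adamtsl3 at 0.0236.

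**Figure D1:**
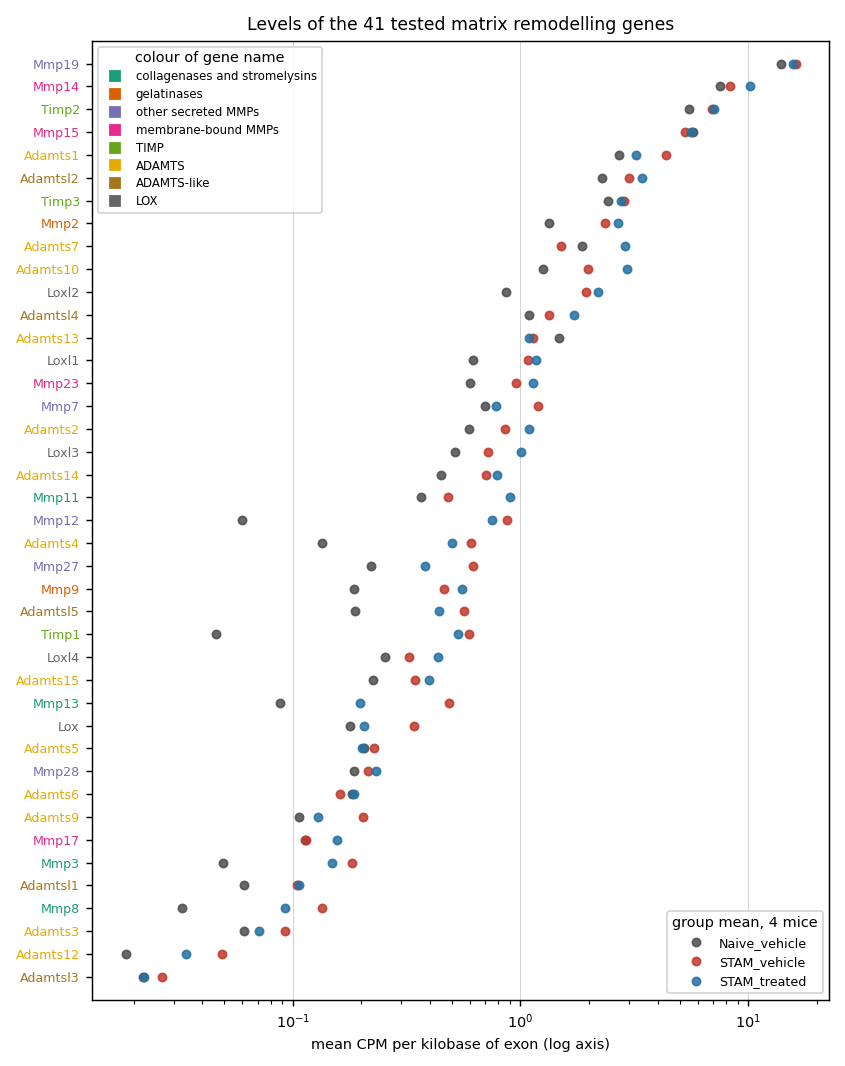
Mean level of each of the 41 tested genes in CPM per kilobase of exon on a log axis, with 1 point per group of 4 mice and genes ordered by the mean over all mice. The genes at the top (Mmp19, Mmp14, Timp2, Mmp15) have group means close to each other, and wide gaps between the Naive_vehicle point and both STAM points lie lower down, at Mmp12, Timp1, Mmp13 and Adamts4.

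The comparison of STAM_vehicle with Naive_vehicle livers asks which genes differ in the disease model. The threshold was an adjusted p of 0.05, and 10 of the 41 tested genes were higher in STAM_vehicle (edgeR's quasi-likelihood test, Benjamini-Hochberg adjustment over 16823 genes), with 0 lower. That is 24.4% of them, against a background of 5.72% of all tested genes higher and 1.38% lower. At an unadjusted p under 0.05, 18 were higher and 0 lower in edgeR, where 22.3% of all tested genes differed in either direction. DESeq2, run without the low-count filter, fitted 54 of the 55 genes and called 14 higher and 0 lower. Its calls included Mmp24, which is not among the 41, and its share over all genes is not given here. The log2 fold change was above 0 in 36 of the 41, with a median of 0.65 against 0.009 for all tested genes. The CPM of all 4 STAM_vehicle mice lay above all 4 healthy mice for 12 genes and below them for 0, where the background is 14.2% and 12.2% of all tested genes. The low-count filter asks for about 10 counts in at least 4 of the 12 mice. The called genes Timp1, Mmp13 and Adamts12 had as few as 0, 3 and 4 counts in healthy mice. They passed the filter only with the STAM mice, as did Mmp3 and Mmp8, which were not called. The counts and shares above rest in part on such genes, and the background genes passed the same filter.

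The 10 genes were Mmp9, Mmp12, Mmp13, Mmp27, Timp1, Adamts4, Adamts9, Adamts12, Adamtsl5 and Loxl2, and 9 of them averaged under 1 CPM per kb. Without STAM_treated mouse 3, which is in neither group but shares the estimate of the spread, 13 were called, with Mmp2, Adamts1 and Loxl1 added to the 10. With the sequencing lane as a covariate 0 of the 10 passed (adjusted p from 0.155 to 0.776), while the log2 fold change stayed above 0 in all 10, from 0.78 to 2.98. Within lane 2, the single STAM_vehicle mouse was higher than the single healthy mouse for all 10, by 0.53 to 2.94 on the log2(CPM + 0.1) scale. These genes were chosen with the same mice, and for 8 of the 10 the ranges of the 2 groups do not overlap, so the direction within the lane was fixed for those 8.

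Mmp12, the macrophage metalloelastase, showed the largest fold change of the 41 genes. It is ENSMUSG00000049723, on chromosome 9 of GRCm38 at bases 7344381 to 7369499. Healthy mice had 0.532, 0.503, 0.291 and 0.403 CPM (10 to 25 counts), STAM_vehicle mice had 3.75, 5.10, 11.5 and 4.75 CPM (156 to 597 counts), and STAM_treated mice had 9.64, 3.07, 5.61 and 3.47 CPM. Every STAM mouse, treated or not, lay above every healthy mouse, and STAM_vehicle mouse 3 was the highest of all. The rise from healthy to STAM_vehicle was 3.84 on the log2 scale (standard error 0.47, adjusted p = 0.000502), and it passed in each of the 12 fits that left out 1 mouse.

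Mmp13, the main interstitial collagenase of rodents, was also higher in STAM_vehicle. It is ENSMUSG00000050578, on the same chromosome at 7272514 to 7283331. Its CPM was 0.213, 0.291, 0.0872 and 0.345 in healthy mice, 0.769, 1.09, 2.40 and 0.934 in STAM_vehicle mice, and 0.649, 0.301, 0.789 and 0.368 in STAM_treated mice. The healthy and STAM_vehicle mice did not overlap, and 3 of the 4 treated mice lay under every STAM_vehicle mouse. The log2 fold change of STAM_vehicle against healthy was 2.46 (standard error 0.48, adjusted p = 0.00843) and passed without any 1 mouse.

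Mmp12 and Mmp13 lie in a block of 9 MMP genes on chromosome 9, from base 7272514 to 7699585, a span of 427 kb that holds Mmp13, Mmp12, Mmp1b, Mmp3, Mmp10, Mmp8, Mmp27, Mmp20 and Mmp7. Of these 9 genes, 6 were tested, and Mmp12, Mmp13 and Mmp27 were called higher in STAM_vehicle. Several genes of the block are known as targets of AP-1, a transcription factor of the Fos and Jun families, through a site close to the start of transcription. RefSeq promoter windows (250 bases before to 50 after each annotated start, GRCm38.p6) were present for 36 of the 55 genes, and for Mmp9, Adamts4 and Loxl2 none was used. They were searched on both strands for the AP-1 letters TGANTCA and for the TATA box letters TATAAA. AP-1 letters were found in 7.81% of all 32851 windows, in 7 of the 9 block genes and in 0 of the 27 other members with a window. TATA letters were found in 13.6% of all windows and in 8 of the 9 block genes, and all 7 genes with AP-1 letters also had them.

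The windows of the called block genes with a match are shown because they place both motifs near the start, and the window of Timp1 is shown beside them as the most strongly changed inhibitor. The lines give Mmp12 at chr9:7347124-7347423, Mmp13 at chr9:7272264-7272563 and Timp1 at chrX:20869916-20870215, all on the plus strand of GRCm38. Capitals mark the AP-1 and TATA letters.
Mmp12: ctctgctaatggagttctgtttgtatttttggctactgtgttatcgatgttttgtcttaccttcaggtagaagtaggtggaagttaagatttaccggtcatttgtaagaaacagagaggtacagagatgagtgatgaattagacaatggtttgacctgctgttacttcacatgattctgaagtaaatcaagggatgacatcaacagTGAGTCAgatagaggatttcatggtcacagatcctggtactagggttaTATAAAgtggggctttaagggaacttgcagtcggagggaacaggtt
Mmp13: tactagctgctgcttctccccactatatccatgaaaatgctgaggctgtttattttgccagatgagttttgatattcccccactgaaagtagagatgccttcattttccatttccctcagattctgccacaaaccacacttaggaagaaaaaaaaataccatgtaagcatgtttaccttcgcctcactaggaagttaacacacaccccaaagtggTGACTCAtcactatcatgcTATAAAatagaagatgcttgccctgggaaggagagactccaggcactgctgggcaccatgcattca
Timp1: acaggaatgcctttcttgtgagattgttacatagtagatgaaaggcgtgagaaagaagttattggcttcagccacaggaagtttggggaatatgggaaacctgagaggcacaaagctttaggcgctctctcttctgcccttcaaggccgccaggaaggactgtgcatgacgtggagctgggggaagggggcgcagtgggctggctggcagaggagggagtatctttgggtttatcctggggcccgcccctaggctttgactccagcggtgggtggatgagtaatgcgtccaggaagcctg

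In the Mmp13 window the AP-1 letters began 35 bases and the TATA letters 16 bases before the annotated start. In the Mmp12 window the AP-1 letters began 44 bases before it, and the TATA letters began 4 bases after it. RefSeq gives Mmp12 another start, whose window (chr9:7344147-7344446) held neither set of letters, and the Timp1 window held neither. Only exact matches to the letters were counted, so variants such as the tgagtaa in the Timp1 window were missed. The absence of a match is therefore not the absence of an AP-1 site, and binding was not tested. Of the 7 genes higher in STAM_vehicle that have a window, 2 held AP-1 letters (Mmp12 and Mmp13), as did 2 of the 19 other tested genes with a window. A further motif, the STAT letters TTCNNNGAA, was found in 8.3% of all windows and in 1 member, Mmp23.

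Like Mmp13 (3 to 12 counts in healthy and 32 to 124 in STAM_vehicle mice), the other genes of the block had few counts. Mmp27, a stromelysin-like MMP, had 0.745, 0.397, 0.436 and 0.374 CPM in healthy and 0.697, 1.14, 2.44 and 1.19 CPM in STAM_vehicle mice, with a log2 fold change of 1.47 (standard error 0.39, adjusted p = 0.0360). The highest healthy mouse lay above the lowest STAM_vehicle mouse, and the call was kept in 6 of the 12 fits that left out 1 mouse. Mmp3 (stromelysin 1), Mmp8 (neutrophil collagenase) and Mmp7 (matrilysin, in the liver known from bile duct epithelium) had log2 fold changes of 1.81, 2.04 and 0.77 and did not pass (adjusted p = 0.109, 0.186 and 0.337).

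Of the other MMPs, Mmp9 (gelatinase B), which is known from neutrophils and macrophages, had 1.02, 0.530, 0.610 and 0.460 CPM in healthy and 1.35, 1.22, 1.99 and 1.99 CPM in STAM_vehicle mice. The groups did not overlap (log2 fold change 1.30, standard error 0.35, adjusted p = 0.0382), but the call was kept in only 6 of the 12 fits without 1 mouse. Mmp2 (gelatinase A), known from stellate cells and other fibroblasts, averaged 4.48 ± 1.01 CPM (SD, n = 4) in healthy and 7.97 ± 1.02 in STAM_vehicle livers. Its mice did not overlap either, and its log2 fold change of 0.83 missed the threshold (adjusted p = 0.0608). DESeq2 called it, at an adjusted p of 0.0188.

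The abundant MMPs differed little between these groups. Mmp19 had a log2 fold change of 0.21 (standard error 0.14, adjusted p = 0.399), Mmp14 had 0.14 (0.20, 0.720) and Mmp15 had -0.11 (0.17, 0.741). No tested membrane-bound MMP passed. The MMP level summed per mouse was between 30.1 and 32.9 CPM per kb in healthy and between 34 and 41.2 in STAM_vehicle mice. The share of Mmp12 in this sum was 0.133% to 0.237% in healthy and 1.53% to 3.87% in STAM_vehicle mice.

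Among the inhibitors, Timp1, the inducible member of the family, was nearly without counts in healthy liver. It had 0.106, 0, 0.0291 and 0.0288 CPM in healthy mice (0 to 5 counts), 0.385, 0.400, 0.812 and 0.509 in STAM_vehicle mice (16 to 42 counts), and 0.450, 0.211, 0.681 and 0.551 in STAM_treated mice. Both STAM groups lay wholly above the healthy mice. The log2 fold change of STAM_vehicle against healthy was 3.49 (standard error 0.61, adjusted p = 0.00446), and its size rests on the few healthy counts. The gene (ENSMUSG00000001131, GRCm38 chromosome X, bases 20870166-20874735) overlaps Syn1 on the other strand, without shared exon bases. Timp2 (log2 fold change 0.33, adjusted p = 0.422) and Timp3 (0.23, adjusted p = 0.544) did not pass. Timp1 reached 3.72% to 9.58% of the summed TIMP level in STAM_vehicle mice, against 0% to 1.05% in healthy mice.

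Of the 13 tested ADAMTS genes, 3 were called higher in STAM_vehicle. Adamts4, an aggrecanase that also cleaves versican, had 0.936, 0.397, 0.407 and 0.834 CPM in healthy, 2.38, 1.81, 4.47 and 3.03 in STAM_vehicle and 2.70, 2.44, 1.51 and 2.96 in STAM_treated mice. Both STAM groups lay above the healthy mice. From healthy to STAM_vehicle, Adamts4 rose by 2.17 on the log2 scale (standard error 0.36, adjusted p = 0.00344) and passed without any 1 mouse. Adamts4 is ENSMUSG00000006403, on chromosome 1 of GRCm38 from 171250421 to 171260637.

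Adamts12 and Adamts9 were called with less margin. Adamts12, a protease of cartilage matrix proteins, had 4 to 12 counts in healthy and 21 to 32 counts in STAM_vehicle mice, and the CPM of the 2 groups did not overlap (log2 fold change 1.42, standard error 0.40, adjusted p = 0.0455). Adamts9, a proteoglycan-cleaving member, averaged 1.59 ± 0.549 CPM (SD, n = 4) in healthy and 3.05 ± 0.836 in STAM_vehicle mice, which overlapped (log2 fold change 0.93, adjusted p = 0.0492). Their calls were kept in 4 and 3 of the 12 fits that left out 1 mouse. Adamts1, the most abundant ADAMTS and another versican-cleaving enzyme, did not pass (log2 fold change 0.68, adjusted p = 0.0618), although all 4 STAM_vehicle mice (17.6 to 33.4 CPM) lay above the healthy mice (12.8 to 16.7 CPM).

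The procollagen N-proteinases Adamts2, Adamts3 and Adamts14 had log2 fold changes of 0.52, 0.60 and 0.65 and did not pass (adjusted p = 0.165, 0.303 and 0.229). The lowest fold changes of the family were those of Adamts13, the protease of von Willebrand factor that hepatic stellate cells are known to make (-0.40, adjusted p = 0.519), and Adamts7 (-0.31, adjusted p = 0.466). Among the 5 ADAMTS-like genes, Adamtsl5 was called, with 1.28, 0.848, 0.640 and 0.776 CPM in healthy and 2.21, 2.59, 3.73 and 2.16 CPM in STAM_vehicle mice. Its groups did not overlap (1.58 on the log2 scale, standard error 0.35, adjusted p = 0.0163), and the call was kept in 8 of the 12 fits without 1 mouse. Adamtsl2, a microfibril-binding protein, did not pass (0.39, adjusted p = 0.521).

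Of the lysyl oxidases, Loxl2, which acts on basement membrane collagen and fibrillar collagen, was called. It had 6.30, 4.16, 4.27 and 3.97 CPM in healthy, 7.26, 8.72, 13.2 and 12.7 in STAM_vehicle and 12.8, 9.91, 10.7 and 14 in STAM_treated mice, so the healthy mice lay below both STAM groups. From healthy to STAM_vehicle it changed by 1.16 on the log2 scale (standard error 0.22, adjusted p = 0.00668) and passed without any 1 mouse. Loxl2 (ENSMUSG00000034205) spans 69609068 to 69695834 of chromosome 14 in GRCm38. The other 4 lysyl oxidases had log2 fold changes of 0.35 to 0.92 and did not pass. Among them, Lox, the founding enzyme of the family, had 1.49 to 1.82 CPM in STAM_vehicle and 0.436 to 1.21 CPM in healthy mice, with no overlap (adjusted p = 0.133).

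**Figure D2:**
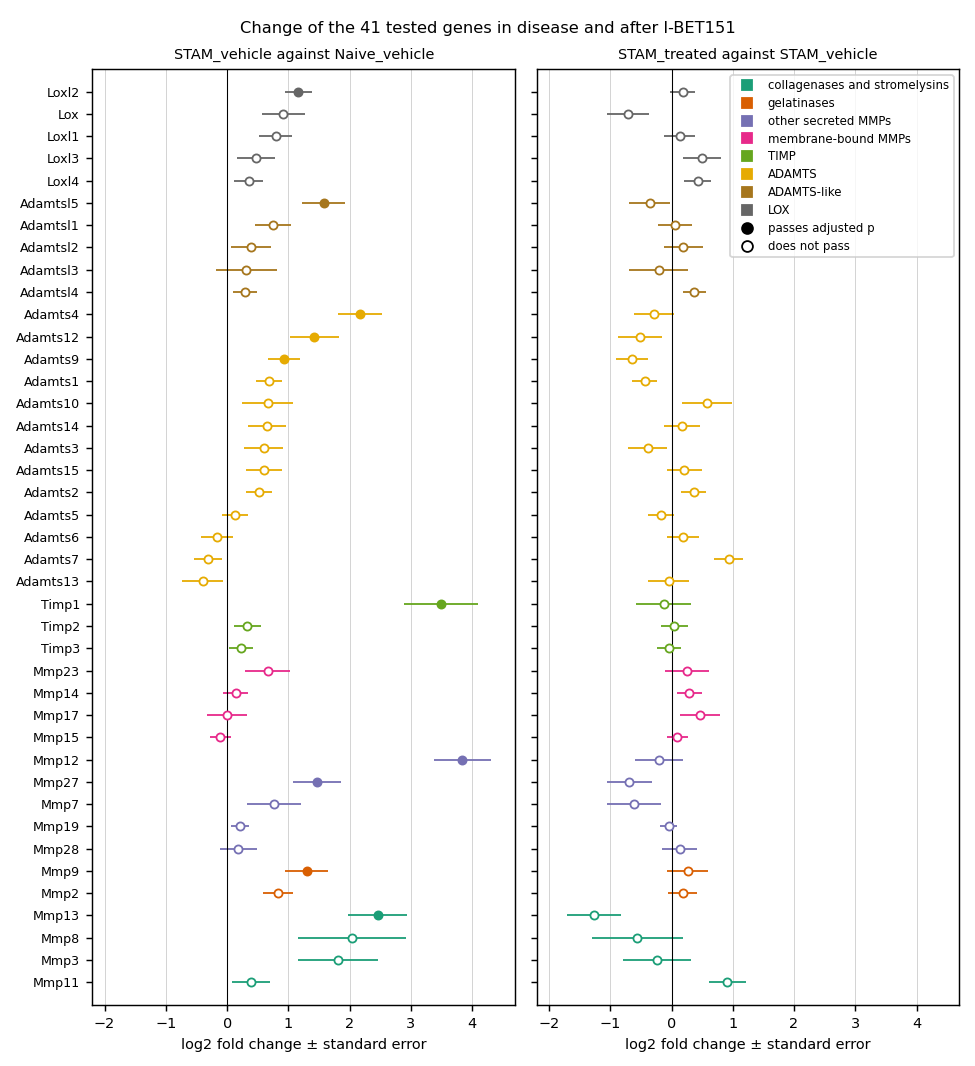
Log2 fold change with its standard error for the 41 tested genes, for STAM_vehicle against Naive_vehicle (left) and STAM_treated against STAM_vehicle (right), coloured by family, with filled points for genes that pass the adjusted p. On the left 36 of 41 points lie above 0 and 10 are filled, and on the right 22 lie above 0 and 0 are filled. Both panels use the same STAM_vehicle mice.

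**Figure D3:**
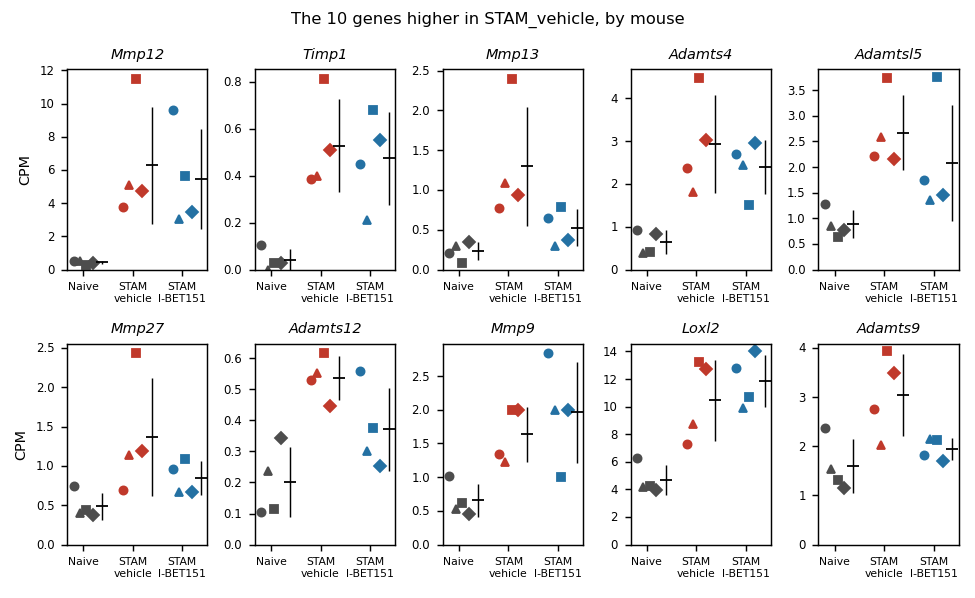
CPM of each mouse for the 10 genes called higher in STAM_vehicle, with 1 panel per gene, markers by replicate number (circle 1, triangle 2, square 3, diamond 4) and the group mean ± SD over 4 mice as a black bar. STAM_vehicle mouse 3 (red square) is the highest of its group for 9 of the 10 genes.

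The 10 genes were highest in the same STAM_vehicle mouse more often than in any other. Mouse 3 was the highest of its group for 9 of them, with Adamts9 at 3.93, Timp1 at 0.812 and Mmp13 at 2.40 CPM, and mouse 4 was the highest for Mmp9 by a margin below the rounding used here. Over all 41 tested genes, mouse 3 was the highest STAM_vehicle mouse for 17 and mouse 1 the lowest for 22. Among healthy mice, mouse 1 was the highest for 30 of the 41 genes. Without STAM_vehicle mouse 3, and likewise without healthy mouse 3, 5 of the 10 genes were called (Mmp12, Mmp13, Timp1, Adamts4 and Loxl2). Without healthy mouse 2 these 5 were called together with Mmp24, a gene of 14 counts or fewer in each mouse. With all mice Mmp24 missed the low-count filter, but DESeq2 called it higher (2.32, adjusted p = 0.0331), as did edgeR without that filter (2.26, 0.0375). It was also called higher without healthy mouse 1 or 4, without STAM_vehicle mouse 1 or 4, and without STAM_treated mouse 1, 2 or 4. With 1 mouse left out, the filter let 42 to 44 members into these fits, against 41 with all mice, and Mmp24 was among those let in.

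Markers of cell types that express these genes moved in the same comparison. In bulk liver, more cells of a type and more RNA per cell cannot be told apart. The summed level of 5 monocyte-derived macrophage markers (Ccr2, Cx3cr1, Trem2, Gpnmb and Itgax) was 2.70 to 6.04 CPM in healthy, 9.98 to 28.8 in STAM_vehicle and 7.95 to 18.7 in STAM_treated mice, and 3 of the 5 were called higher in STAM_vehicle. The highest, at 28.8 CPM, was STAM_vehicle mouse 3, which also had the highest Mmp12. This match is not particular to these markers. The same mouse was the highest of its group for 8 of the 13 marker lists, among them Kupffer cells, neutrophils and myofibroblasts. Kupffer cell markers summed to 144 to 203, 229 to 410 and 168 to 353 CPM in the 3 groups, with 2 of 5 called higher in STAM_vehicle. Of the neutrophil markers, 1 of the 3 tested (Csf3r) was called, and the defining marker Ly6g stood at 0 in every healthy mouse and at no more than 0.0540 CPM in any mouse. Myofibroblast markers summed to 21.6 to 30.5, 41.1 to 51.3 and 30.5 to 68.1 CPM, with Col1a1 and Tnc of the 5 called higher in STAM_vehicle. Without STAM_treated mouse 3, the markers called higher in STAM_vehicle were 4 of 5 for monocyte-derived macrophages, 4 of 5 for Kupffer cells, 3 of 3 for neutrophils and 4 of 5 for myofibroblasts. The share of all genes called without that mouse is not given here. The part of these cells in the rise of the 10 genes was not tested.

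Of the hepatocyte markers, 0 of 5 were called, but their summed level lay below the healthy range of 99700 to 116000 CPM in both STAM groups (48700 to 69900 and 18200 to 80800). Without STAM_treated mouse 3, 3 of the 5 were called lower in STAM_vehicle. Quiescent stellate cell markers summed to 222 to 246 CPM in healthy, 130 to 220 in STAM_vehicle and 150 to 175 in STAM_treated mice. Most of this sum was Ecm1 and Reln, with means of 161 and 54.7 CPM in healthy mice. In STAM_treated against healthy livers these 2 genes were called lower (log2 fold changes -0.60 and -0.65). The rest of the list did not follow, with Lrat at -0.02, Hgf at -0.17 and Des at 0.19. T cell markers summed to 1.81 to 4.36 CPM in healthy, 4.89 to 6.51 in STAM_vehicle and 1.82 to 2.69 in STAM_treated mice. Of them, Cd8a was called higher in STAM_vehicle, and Cd4 was called lower in STAM_treated against STAM_vehicle. Krt7 of the 5 cholangiocyte markers was called higher in STAM_treated against healthy livers (0.82). The rest of that list went both ways, with Spp1 at 0.55, Krt19 at 0.11, Epcam at -0.14 and Sox9 at -0.48. Of the sinusoidal endothelium markers, 0 were called with all mice, and 1 was called higher in both STAM groups against healthy livers without STAM_treated mouse 3. With or without that mouse, no marker of B cells, mesothelium, adipocytes or pancreatic acinar cells was called in any of the 3 comparisons. In the adipocyte and pancreatic acinar lists, Adipoq, Lep, Plin1, Pnlip, Cpa1 and Ctrb1 were at or near 0 in all groups. The remaining members of these lists were not. Cidec averaged 44.7, 85.3 and 67.3 CPM and Cela1 averaged 4.38, 4.21 and 4.36 CPM in healthy, STAM_vehicle and STAM_treated mice.

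**Figure D4:**
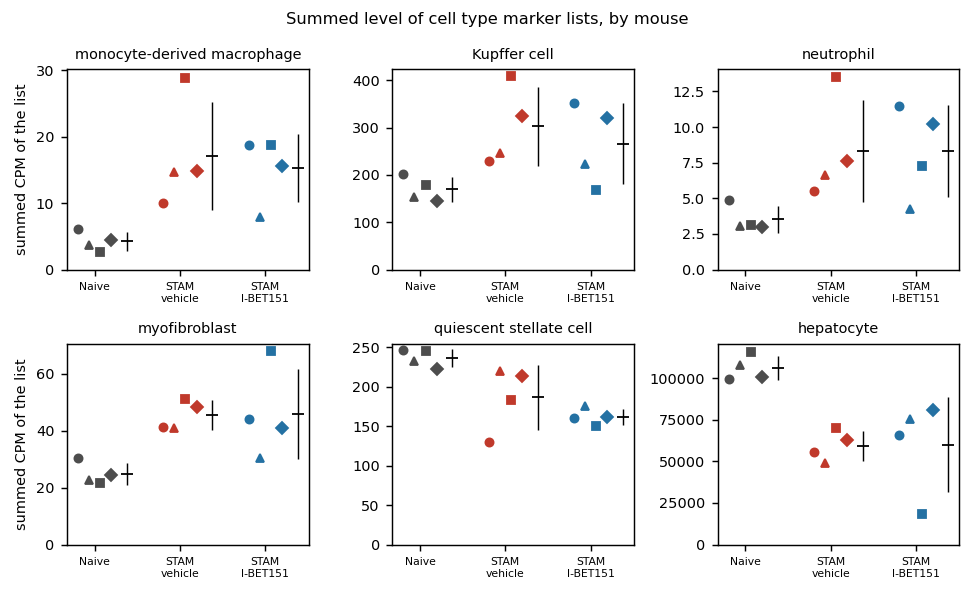
Summed CPM of 6 cell type marker lists in each mouse, with markers by replicate number (circle 1, triangle 2, square 3, diamond 4) and the group mean ± SD over 4 mice as a black bar. The monocyte-derived macrophage list is above the healthy range of 2.70 to 6.04 CPM in all 8 STAM mice, and STAM_treated mouse 3 is lowest for hepatocyte markers at 18200 CPM.

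Substrates and partners of these enzymes were followed as 5 further gene lists. Of 16 fibrillar and basement membrane substrates, Col1a1 (1.14 on the log2 scale), Col5a2 (1.70), Col4a2 (0.66) and Fbn1 (0.75) were higher in STAM_vehicle, and 0 were lower (median 0.65). Of 10 tested genes of procollagen processing and collagen modification, only Pcolce, the enhancer of procollagen C-proteinase, was called (0.89, adjusted p = 0.0155), with a median of 0.30. Of 4 tested proteoglycans, Lum was called (0.87, adjusted p = 0.0345), while Vcan, a substrate of ADAMTS1 and ADAMTS4, had 1.91 and missed the threshold (adjusted p = 0.0612). Of 10 tested activators and other inhibitors, Plat, the tissue plasminogen activator (1.67), Plaur, the urokinase receptor (1.60), and A2m, a broad protease inhibitor (2.33), were called higher. Of 10 tested ADAM and meprin proteases, Adam8 (1.87) and Adam23 (0.64) were called higher. Without STAM_treated mouse 3 the 5 lists held 10, 4, 2, 4 and 3 genes called higher and, in the last list only, 1 called lower. No share over all genes is given for that fit.

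The comparison of STAM_treated with STAM_vehicle livers asks what I-BET151 did to these genes in diseased liver. At the adjusted p of at most 0.1 used for this comparison, 0 of the 41 genes were called in either direction by edgeR, against a background of 0.0951% of all tested genes higher and 0.256% lower. At an unadjusted p under 0.05, 4 of the 41 were counted, 2 in each direction, where 8.68% of all tested genes were. DESeq2 called 1 gene, Adamts7, as higher. The log2 fold change was above 0 in 22 genes and below 0 in 19, with a median of 0.05 against 0.024 for all tested genes. The CPM ranges were apart for 1 gene, Adamts7, which was higher, and for 0 genes that were lower (background 2.41% and 2.63%).

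Adamts7, which cleaves cartilage oligomeric matrix protein and is known from vascular smooth muscle, had the smallest p. It had 14, 10.0, 7.62 and 15.4 CPM in healthy, 10.2, 7.87, 9.98 and 9.91 in STAM_vehicle and 17.2, 16.6, 25.5 and 13 in STAM_treated mice. All treated mice lay above all STAM_vehicle mice, while the healthy mice overlapped both. The log2 fold change was 0.93 (standard error 0.23) and missed the threshold with an adjusted p of 0.168 by edgeR's quasi-likelihood test. It passed in DESeq2 (adjusted p = 0.0196) and in edgeR without a low-count filter (0.0939), and had 0.73 (adjusted p = 0.110) without STAM_treated mouse 3. The gene shares 122 exon bases with Tbc1d2b on the other strand.

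The other 3 genes at an unadjusted p under 0.05 were Mmp11, Mmp13 and Adamts9. Mmp11 (stromelysin 3) had 1.13, 1.28, 1.80 and 1.12 CPM in STAM_vehicle and 1.71, 1.72, 4.09 and 2.46 CPM in STAM_treated mice, with a log2 fold change of 0.91 (standard error 0.30, adjusted p = 0.380). Mmp13 had -1.27 (standard error 0.44, adjusted p = 0.392), from 1.30 ± 0.746 to 0.527 ± 0.231 CPM (SD, n = 4). Adamts9 had -0.65 (0.26, 0.484), from 3.05 ± 0.836 to 1.94 ± 0.218 CPM. In each of the 3 genes the CPM ranges of the groups overlapped.

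The next smallest p values were those of Adamts1 and Lox. Adamts1 had 13.2 to 22.6 CPM in treated and 17.6 to 33.4 CPM in STAM_vehicle mice (-0.44, standard error 0.20, adjusted p = 0.579). Lox had 0.883, 0.512, 0.968 and 1.56 CPM in treated and 1.59, 1.58, 1.82 and 1.49 CPM in STAM_vehicle mice (-0.71, standard error 0.34, adjusted p = 0.590), so 3 of the 4 treated mice lay under every STAM_vehicle mouse.

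**Figure D5:**
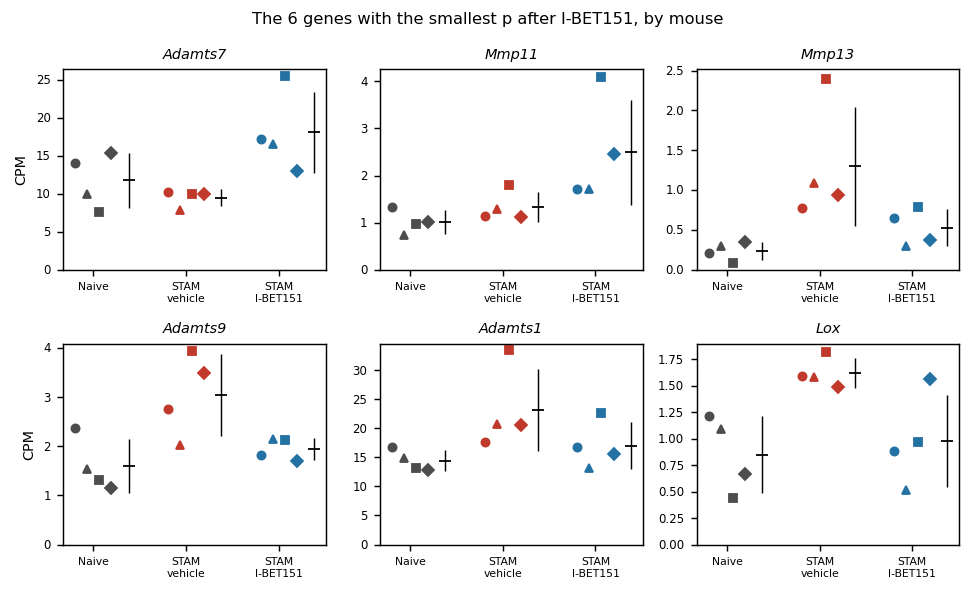
CPM of each mouse for the 6 genes with the smallest p in STAM_treated against STAM_vehicle, with markers by replicate number (circle 1, triangle 2, square 3, diamond 4) and the group mean ± SD over 4 mice as a black bar. None of the 6 passes an adjusted p of 0.1 in edgeR, and Adamts7 is the one whose STAM_treated mice (13 to 25.5 CPM) all lie above the STAM_vehicle mice (7.87 to 10.2 CPM).

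The 10 genes higher in STAM_vehicle had log2 fold changes after I-BET151 between -1.27 (Mmp13) and 0.26 (Mmp9), and these values share the STAM_vehicle mice with the first comparison. Mmp12 had -0.20 (standard error 0.39), Timp1 -0.13 (0.45), Adamts4 -0.29 (0.33), Adamts12 -0.51 (0.36), Adamtsl5 -0.36 (0.33), Mmp27 -0.69 (0.37) and Loxl2 0.18 (0.21). For Mmp12 the sign turned to 0.27 without STAM_vehicle mouse 3, and for Timp1 it turned in 2 of the 12 fits without 1 mouse (range -0.35 to 0.15). The standard errors leave room for changes of either sign in most of these genes, so the data do not show that they stayed the same.

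Adamts13, also given above, was picked after its values were seen. It had 5.19, 6.89, 4.10 and 5.98 CPM in STAM_vehicle and 3.75, 3.25, 10.8 and 3.61 CPM in STAM_treated mice. The 3 treated mice other than mouse 3 lay below all STAM_vehicle mice, and mouse 3 lay above all of them. With all mice the log2 fold change was -0.05 (adjusted p = 0.988), and without mouse 3 it was -0.64 (adjusted p = 0.103) in edgeR. In DESeq2 without that mouse, 4 genes were called lower, which were Mmp13 (-1.53, adjusted p = 0.0360), Adamts1 (-0.59, 0.0673), Adamts13 (-0.63, 0.0182) and Adamtsl5 (-0.80, 0.0537), and Adamts7 was called higher (0.73, 0.0258). In edgeR without that mouse the count was 0 in both directions. None of the 5 lists of substrates and partners held a called gene in this comparison, with or without mouse 3.

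The comparison of STAM_treated with Naive_vehicle livers shows how far the treated livers stood from healthy ones. With the threshold again at an adjusted p of 0.05, 12 of the 41 genes were higher and 0 lower. That is 29.3%, against a background of 9.88% of all tested genes higher and 5.25% lower. Timp1 is again among the called genes that passed the low-count filter only with the STAM mice. At an unadjusted p under 0.05, 23 were higher and 0 lower, where 32.6% of all tested genes differed in either direction. The median log2 fold change was 0.78 against 0.061 for all tested genes, and 38 were above 0. The CPM ranges were apart for 11 genes, all higher (background 10.9% higher and 8.85% lower).

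The 12 genes were Mmp2, Mmp9, Mmp11, Mmp12, Timp1, Adamts2, Adamts4, Adamtsl4, Adamtsl5, Loxl1, Loxl2 and Loxl4. Of them 6 were also called in STAM_vehicle against the same healthy mice (Mmp9, Mmp12, Timp1, Adamts4, Adamtsl5 and Loxl2), which is 6 of 10 and 6 of 12. The largest were Mmp12 with 3.64 (standard error 0.46, adjusted p = 0.000461) and Timp1 with 3.36 (0.61, 0.00391), followed by Adamts4 with 1.88 and Mmp9 with 1.56. Mmp13 had 1.19 (adjusted p = 0.114), Mmp27 had 0.78 (0.181), Adamts12 had 0.92 (0.135) and Adamts9 had 0.28 (0.488) and were not called. A gene called in 1 of the 2 comparisons and not in the other is not thereby shown to differ between STAM_vehicle and STAM_treated livers, and the test of that difference called none.

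Collagen-modifying members were among those called in treated livers. Loxl1 and Loxl4, cross-linking enzymes, had 0.92 (standard error 0.27, adjusted p = 0.0364) and 0.78 (0.23, 0.0352). Adamts2, the procollagen N-proteinase, had 0.88 (0.21, 0.0157), with 4.56 to 7.32 CPM in healthy and 6.78 to 13.7 in treated mice, which overlapped. Adamtsl4, a microfibril-associated protein, had 0.66 (0.20, 0.0380), Mmp2 had 1.01 (0.25, 0.0168) and Mmp11 had 1.30 (0.31, 0.0150). The calls of Loxl1, Loxl4 and Adamtsl4 were kept in 6, 7 and 4 of the 12 fits that left out 1 mouse. All 3 were lost in the fit of only these 2 groups (adjusted p = 0.0753, 0.0688 and 0.0667). That fit kept 5 of the 12 calls. Adamts2 (0.0503), Mmp2 (0.0529) and Adamtsl5 (0.0757) also missed the threshold in it. Timp1 was not tested in that fit, because it did not pass the low-count filter with only these mice. Loxl3 (0.96, adjusted p = 0.0548), Adamts10, a fibrillin-binding protease (1.24, 0.0615), and Adamts15 (0.81, 0.0738) missed the threshold. Of the substrates, 11 of 16 were higher in treated than in healthy livers, as were 3 of 10 genes of procollagen processing, 1 of 4 proteoglycans, 2 of 10 activators and inhibitors and 2 of 10 ADAM and meprin genes. Without STAM_treated mouse 3 these counts were 10, 3, 1, 2 and 1.

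Treated mouse 3 was the highest of its group for 24 of the 41 genes. It held the top value of Mmp2 (14.5 CPM against 6.11 to 7.79 in the other treated mice) and of Adamts10 (54 against 9.91 to 18.8). Without it 11 genes were called higher and 1 lower. The calls of Adamtsl4, Adamtsl5 and Loxl1 were lost, Mmp14 (0.58, adjusted p = 0.0332) and Timp4 (4.03, 0.0445) were added, and Adamts13 was lower (-1.06, 0.00168). Timp4, which missed the low-count filter with all mice, had 1.29 CPM (56 counts) in treated mouse 4. Treated mice 1 and 2 had 0.036 and 0.0904 CPM, and healthy mice had 0 to 0.0575, so the size of its fold rests on mouse 4. With the sequencing lane as a covariate 0 of the 12 passed (adjusted p from 0.0759 to 0.559), with log2 fold changes of 0.47 to 2.91. Within lanes 2 and 5, each with 1 healthy and 1 treated mouse, all 12 were higher in the treated mouse, a direction that was fixed for the 10 of them whose ranges do not overlap.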

How the data were processed

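Liver RNA of 12 mice was sequenced from stranded mRNA libraries. The authors aligned the reads with STAR 2.5.1b (mm10, per the labels), kept uniquely mapped reads and deposited raw counts, 1 whole number for each gene and mouse. The methods and the submitters' notes name HTSeq as the counter, whereas the deposited names point to featureCounts, and the annotation release and strand setting are not given in the sources used here. Without a strand setting, reads of genes that overlap on opposite strands cannot be told apart or may be left uncounted. Symbols, gene types, coordinates and exon lengths came from GENCODE M21 on GRCm38, which matched 47310 of the 47729 gene rows, and the promoter windows came from RefSeq.

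The counts were normalized by TMM, filtered by filterByExpr (minimum count 10, 16823 genes) and tested in 1 fit of the 3 groups with edgeR 4.0.16 in R 4.3.3 (quasi-likelihood test, two-sided, Benjamini-Hochberg adjustment over all tested genes). Thresholds were an adjusted p of 0.05 against healthy mice and 0.1 for STAM_treated against STAM_vehicle. DESeq2 1.42.0 was an alternative, as were RLE normalization, other filters, fits of 2 groups, the replicate number as a block, the lane as a covariate and each mouse left out in turn. DESeq2 without STAM_treated mouse 3 was added after seeing the data. The standard error was taken as the size of the log2 fold change divided by the square root of F. The method was tested on simulated counts. Python 3.11.15, pandas 2.3.3 and Matplotlib 3.10.9 made tables and figures.

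The members, the gene lists and the marker lists were chosen with earlier results of these data known. Genes are named if they pass a threshold, are the 2 most abundant of their subfamily per kilobase, are 1 of the 3 smallest p values that miss a threshold, or are known from liver matrix turnover. This rule gave 29 genes. Some members outside it are given as well, among them Mmp3, Mmp8, Mmp23, Mmp24, Timp4, Adamts3, Adamts13 and Adamts14. Mice of the same group always differed by more than sampling noise (chi-square per degree of freedom from 35.3 to 746 over 14219 genes). The p-values measure the spread between these mice.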

Additional observations from a re-analysis of the deposited data

Results flagged for a closer look

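In groups of 4 mice, a mouse was set aside as outlying where its gap to the nearest other mouse was too large a part of the range of the group by Dixon's test. Of 99 groups of values examined, 9 met this, where chance gives about 1 in 20. Healthy mouse 1 was the highest of its group for Adamtsl2 (24.5 CPM, the others 15.8 to 16.9), Loxl2 (6.30 CPM, the others 3.97 to 4.27) and Mmp27 (0.745 CPM, the others 0.374 to 0.436). Healthy mouse 3 was low for Mmp7 at 0.320 CPM, with the others at 0.863 to 0.901. STAM_vehicle mouse 2 was low for Adamts7 at 7.87 CPM, with the others at 9.91 to 10.2. STAM_treated mouse 3 was high for Adamtsl5 at 3.75 CPM, with the others at 1.36 to 1.75. The same mouse had a TMM factor of 1.609 and 7.946% of its counts in its 10 most abundant genes. STAM_vehicle mouse 1 had 6.438% of its counts on mitochondrial genes, with the others at 5.828% to 5.928%. The causes were not tested.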

How the results depend on the processing

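For STAM_vehicle against healthy livers, the 10 of 41 genes called higher became 16 of 38 in the fit of only these 2 groups. They became 0 of 41 with the lane as a covariate. In DESeq2 without STAM_treated mouse 3 there were 21 of 53, with 1 called lower. The shares of all genes called in the alternative fits are not given here. Leaving out 1 mouse gave 5 to 13 higher. With the replicate number as a block there were 6 (9 rather than 12 for STAM_treated against healthy livers). Same-numbered STAM_vehicle and healthy mice deviated no more alike than other mice (mean r -0.0695 against 0.0233). The same held for STAM_treated and STAM_vehicle mice (-0.0624 against 0.019), although those numbered 1, 3 and 4 shared a sequencing lane. For STAM_treated against STAM_vehicle, the 0 genes became 1 higher in DESeq2, 1 higher without a low-count filter, and 1 higher with 4 lower in DESeq2 without mouse 3, and leaving out 1 mouse gave 0 throughout. For STAM_treated against healthy livers, the 12 became 5 of 37 in the fit of 2 groups and 0 of 41 with the lane. They became 5 to 18 when 1 mouse was left out, with 0 to 1 lower, and DESeq2 without mouse 3 called 1 lower. The other settings (RLE normalization, at least 10 counts in every mouse, and DESeq2 for the comparisons with healthy mice) kept the counts within 1.5 times. The change of Timp1 after I-BET151 reversed to 0.03 with the lane as a covariate, and its range without 1 mouse was -0.35 to 0.15. That of Mmp12 was -0.63 to 0.27. The lane fit uses 6 lanes for 12 mice and leaves few mice to estimate the spread. Genes with few counts (Timp1, Mmp13, Adamts12) have the least certain folds, and none of these 3 was in the fit that asked for at least 10 counts in every mouse. Causes of the other shifts were not tested.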
